A study of Homo sapiens with 24 samples.

Results

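Neratinib-resistant OVCAR8 cells were compared with parental OVCAR8 cells while both were on neratinib, and the comparison rests on 6 of the 24 RNA sequencing libraries of the series. OVCAR8 is a line from a human ovarian carcinoma, and its resistant derivative is called NR. One group held 3 NR libraries and the other 3 parental libraries, and every dish of both groups had received 1 µM neratinib for 24 h before RNA was taken. The members were chosen by their labels alone: line, state and treatment. NR cells had been kept without drug for 1 week before seeding, so in them the 24 h of drug followed a pause. The labels do not say whether NR is 1 clone or a pool, and the dishes of a group were seeded in triplicate. They may be technical replicates of 1 culture, in which case p-values speak for dish-to-dish spread alone. Values are set beside the same contrast in untreated OVCAR8 (NR control and parental control, 3 libraries each) and in 5637, a bladder carcinoma line whose NR and parental cells received 600 nM neratinib for 24 h. Neither contrast compares any library of the one described. The untreated contrast was however fitted on 11 OVCAR8 libraries, which include these 6 and leave out parental control replicate 2. Its gene filter, scaling and estimates of spread thus draw on these 6 as well.

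Neratinib is an irreversible inhibitor of EGFR, of ERBB2 (also called HER2) and of ERBB4, receptors that feed the RAS-ERK cascade and the PI3K-AKT-mTORC1 pathway. Genes of the ERK cascade's own output, such as the ETV factors and DUSP phosphatases, are a usual transcript readout of its activity. AKT and mTORC1 act on cell growth, on lipid and sterol synthesis through SREBP factors, and on FOXO factors, which AKT holds out of the nucleus. ATF4 is a transcription factor made when translation initiation is slowed by stress kinases, and also under mTORC1, and it turns on genes of amino acid uptake, amino acid synthesis and tRNA charging. The study behind the series concerned mTORC1 activity in cells resistant to neratinib.

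Library totals of the 6 libraries were 35395625 to 48486296 counts, and levels are given as CPM, the counts of a gene scaled to a fixed library total. In a principal component analysis of these 6 libraries the leading axis carried 88.6% of the variance and put the NR libraries at -29.4 to -25.9 and the parental libraries at 26.2 to 28.5. PAX8, a marker of Mullerian origin, stood at 69.2 to 73.2 CPM in NR and 137 to 145 CPM in parental libraries, and MSLN was present in all 6. EMX2, KLK6 and KLK7 had no count in any of them, and SOX17 and MUC16 were below 1 CPM, so the ovarian label is carried by only some of its markers. Leukocyte markers summed to 1.96 to 2.90 CPM in NR and 1.99 to 2.41 CPM in parental libraries, and PTPRC was at 0. In the untreated comparison parental control replicate 2 stood apart, with 14.1% of its counts in genes longer than 8 kb against 20.4% to 21.2% for all remaining OVCAR8 libraries, so the untreated fit leaves it out.

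Most genes differed between NR and parental cells on drug, and most differences were small. Of 17553 genes tested, 5222 (29.7%) were higher in NR cells and 5179 (29.5%) lower at an adjusted p below 0.05 (edgeR quasi-likelihood F-test, Benjamini-Hochberg). A difference of at least 2-fold was found for 407 higher genes (2.32%) and 928 lower genes (5.29%). The shares of all genes called, 29.7% and 29.5%, are the background for the list counts below. NR and parental values did not overlap for 11263 of the genes tested. The 15 largest changes named in each direction were chosen without overlap, so their separation is no further evidence. The median over all genes tested was -0.011 on the log2 scale. Fold changes are given below as log2 of NR over parental, fitted by edgeR, with a standard error after the ± sign. That error was derived as the absolute log2 change over the square root of the F statistic. The biological coefficient of variation among the replicates was 3.92%, so that small differences passed the test. In such bulk samples fewer cells of a kind and less RNA per cell cannot be told apart.

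GC content moved with the contrast. Split into 10 bins of GC content, genes of the lowest bin had a median of 0.20 on drug and those of the highest -0.30, against -0.042 and 0.0040 in untreated cells and 0.050 and -0.20 in 5637 on drug. All 3 NR libraries lay on one side of this trend and all 3 parental libraries on the other. A fit with a GC offset per library gave 5060 higher and 5227 lower genes and 8566 of the 10401 genes called without it were also called there. What part GC content has in the results was not tested beyond the values of that fit given below. The fit of all 12 OVCAR8 libraries, which includes parental control replicate 2, called 2638 higher and 2958 lower, and the fit of 11 without it 4959 and 5327. In that fit of 11, BST2 and COL1A1 alone among the named genes lost their call. Of the list counts only that of lower sterol genes moved clearly there, to 2. The fits of all 12 and of all 24 libraries cited below both include parental control replicate 2. Calls were fewer in them over all genes. The fit of 12 tested 18072 genes and kept 5534 of the 10401 calls, and that of 24 tested 20250 and kept 6308. Lower list counts in these fits are to be read beside that general loss.

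**Figure D1:**
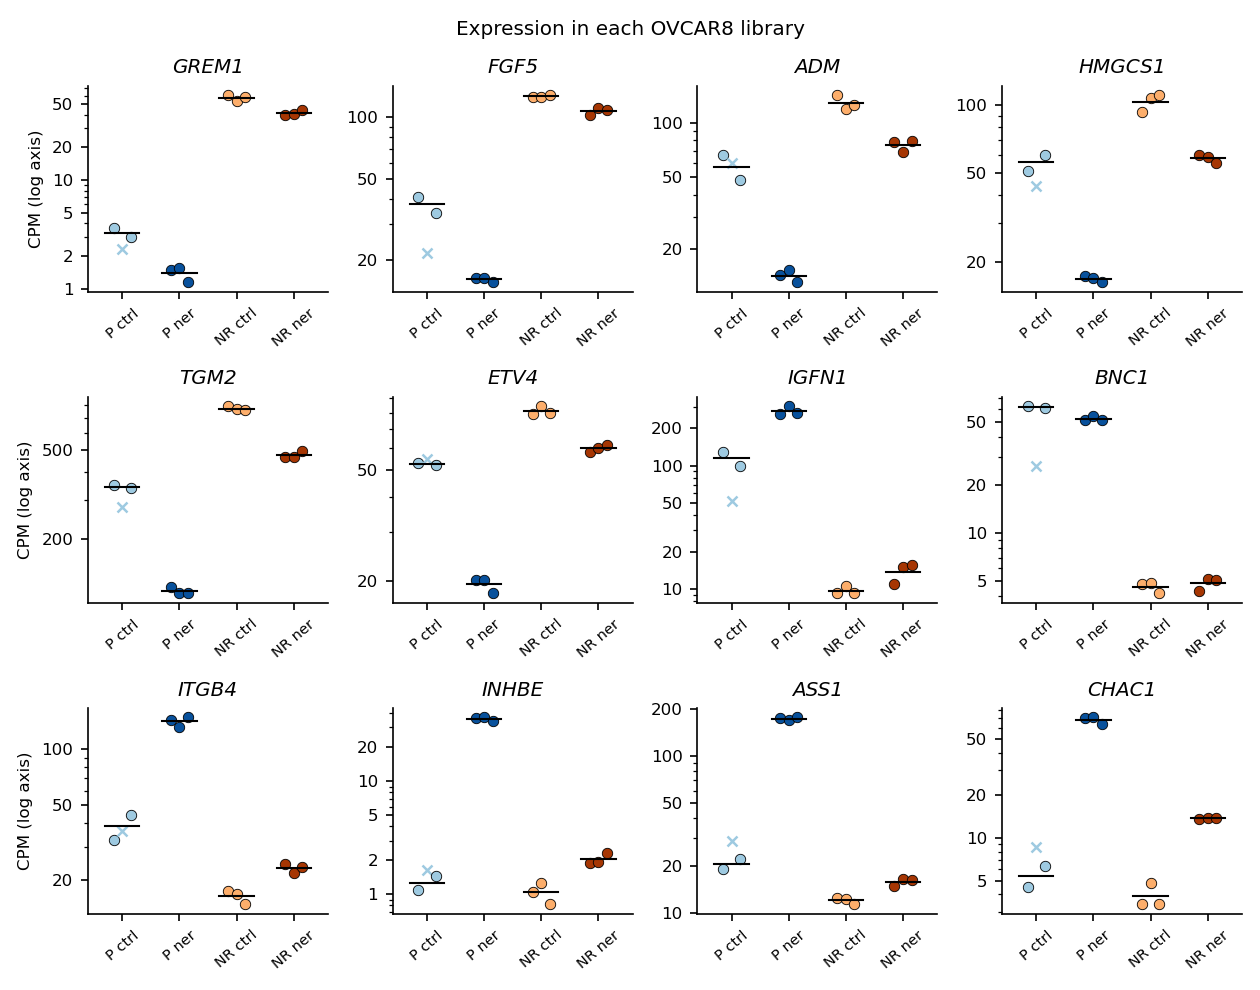
CPM of 12 genes (y axis, logarithmic) in each OVCAR8 library, by group (x axis: P, parental; NR, resistant; ctrl, control; ner, neratinib), with points for libraries and bars for group means; the cross is parental control replicate 2, left out of the mean. The first 6 genes in reading order (GREM1 to ETV4) are higher in all 3 NR than in all 3 parental libraries on neratinib, and the last 6 (IGFN1 to CHAC1) lower.

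The receptors that neratinib binds differed little. EGFR stood at 355, 376 and 371 CPM in the NR libraries on drug and at 342, 331 and 354 CPM in the parental ones. The groups did not overlap, by a narrow margin, and the log2 difference was 0.14 ± 0.035 (adjusted p = 0.0011, edgeR). In a fit of all 12 OVCAR8 libraries, which includes parental control replicate 2, EGFR no longer passed the threshold (adjusted p = 0.697, edgeR). EGFR stayed past it in the fit of 11 without that replicate. ERBB2 was at 123, 118 and 126 CPM in NR and 145, 149.7 and 152 CPM in parental libraries, lower in every NR library, with a difference of -0.24 ± 0.038 (adjusted p = 1.27e-05, edgeR). ERBB3, the kinase-poor partner of ERBB2 that couples it to PI3K, showed the largest difference of the 3 family members tested (ERBB4 was too low to test): 104, 114 and 105 CPM in NR against 216, 210.2 and 211 CPM in parental libraries, or -0.94 ± 0.039 (adjusted p = 1.29e-14, edgeR). Untreated NR cells had less ERBB3 too (-0.61), and the difference on drug was larger by -0.34 ± 0.068 (adjusted p = 0.000451, edgeR).

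Of 6 ERBB ligand genes tested, 3 rose and 2 fell. HBEGF, which binds EGFR and ERBB4, was at 28.8 ± 1.46 CPM in NR and 14.8 ± 0.724 CPM in parental libraries (mean ± SD, n = 3 each), a log2 difference of 0.99. NRG1, the ligand of ERBB3 and ERBB4, differed by 0.32 on drug and by -0.20 without it, that is in opposite directions, both past the threshold. Among 10 negative regulators of the receptors, 6 rose and 3 fell (median 0.21, and 0.064 with the GC offset), and 3 were higher in the fit of all 12 OVCAR8 libraries. LRIG1, which promotes receptor degradation, rose by 0.76 and ERRFI1, an inhibitor of the EGFR kinase, by 0.60, while RNF41, a ubiquitin ligase for ERBB3, was lower at -0.54.

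ERK output genes were higher in NR cells on drug. Of 26 tested, 19 rose and 2 fell, with a median of 0.61 beside -0.011 over all genes. ETV4, an ETS factor induced by ERK, was at 57.8, 59.7 and 61.3 CPM in the NR libraries and 20.2, 20.2 and 18.1 CPM in the parental ones. The NR values lay above every parental value, and the difference was 1.66 ± 0.052 (adjusted p = 1.28e-16, edgeR). DUSP5, a nuclear phosphatase of ERK, was at 39.3, 37.3 and 38.6 CPM against 13.1, 13.2 and 11.4 CPM, again without overlap (1.66 ± 0.06, adjusted p = 1.75e-15, edgeR). FOSL1, an AP-1 subunit stabilised by ERK, rose by 1.42 and ETV5 by 1.03. JUNB, another AP-1 subunit, fell by 0.85 on the log2 scale, from 43.7 ± 2.34 to 23.5 ± 1.98 CPM. The other gene that fell was DUSP4, a further ERK phosphatase, named after its value was seen because its level was under the naming minimum: 1.07, 0.31 and 0.441 CPM in NR against 1.13, 1.38 and 1.146 CPM in parental libraries (-1.01 ± 0.32, adjusted p = 0.0089, edgeR).

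Untreated NR cells showed higher levels of this list too: 18 of the 26 rose and 1 fell, with a median of 0.48. Over all genes, the untreated comparison called 2118 higher (11.4%) and 2107 lower (11.4%) of 18537. Whether the NR effect itself differs with drug was tested as the on-drug effect minus the untreated effect, in 11 OVCAR8 libraries: 3157 of 18537 genes were higher by this test (17%) and 2919 lower (15.7%). For the ERK list 11 members were higher and 5 lower by it. ETV4 was higher by 1.01 ± 0.072 (adjusted p = 6.92e-10, edgeR), and its untreated levels were 79.4, 84.2 and 79.9 CPM in NR and 52.8 and 52.1 CPM in parental control libraries. Both parental controls lay above the parental libraries on drug and a little below the NR libraries on drug.

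Genes under ATF4 were lower in NR than in parental cells on drug, and this was the list with the largest shift of the 42 described. Of 41 tested, 38 fell and 2 rose, with 18 at least 2-fold lower, and the median was -0.97. In untreated cells 10 fell and 6 rose with a median of -0.040. The difference of the 2 effects was called lower for 38 of 41, with a median of -0.86. No member was higher by that test (edgeR and DESeq2, 0 also at an unadjusted p below 0.05). With the GC offset 37 fell and 2 rose, and the median was -0.94.

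The binding element that ATF4 shares with C/EBP partners has the core TGATGNAA, which was searched on both strands (its reverse is TTNCATCA) in the RefSeq promoter windows of the list, build GRCh38.p14, from 250 bases before to 50 after the start. Of the 41 genes 33 had an entry and 11 of these (33.3%) held the core, against 1217 of all 27305 genes with an entry (4.46%) and 1270 of all 35116 windows (3.62%). The list was written from general knowledge of genes under ATF4, so a high share could be foreseen and says nothing of these libraries. Of these 11 the stretches of the 8 with the largest fall are shown so that the core can be read in its place, and capitals mark it. The holders not shown are GARS (-0.63), NARS (-0.33) and SLC7A1 (-0.024, not called). Some genes of the list with larger falls, such as NUPR1 and SLC7A11, are not among the 11. A match is a description of the letters, not of binding in these cells.
CHAC1 (chr15:40953246-40953285, plus strand): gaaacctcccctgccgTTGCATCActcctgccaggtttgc
ASNS (chr7:97872453-97872492, minus strand): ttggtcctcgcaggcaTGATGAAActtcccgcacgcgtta
SLC3A2 (chr11:62881720-62881748, plus strand): taatgtgcaggactccTTACATCAgctcc
SLC1A4 (chr2:64989376-64989415, plus strand): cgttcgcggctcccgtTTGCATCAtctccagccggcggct
ATF3 (chr1:212565200-212565239, plus strand): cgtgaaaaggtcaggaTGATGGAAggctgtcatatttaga
CEBPG (chr19:33374055-33374094, plus strand): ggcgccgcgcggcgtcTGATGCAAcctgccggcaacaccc
AARS (chr16:70289670-70289709, minus strand): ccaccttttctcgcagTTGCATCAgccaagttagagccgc
SLC1A5 (chr19:46784888-46784927, minus strand): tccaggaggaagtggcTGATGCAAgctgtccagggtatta

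CHAC1, which degrades glutathione and is a late target of the stress response, was at 13.7, 13.8 and 13.9 CPM in the NR libraries on drug and 70.04, 70.9 and 64.01 CPM in the parental ones. The parental libraries on drug also stood far above both untreated groups, which held 3.43, 4.78 and 3.41 CPM (NR) and 4.49 and 6.29 CPM (parental). The on-drug difference was -2.26 ± 0.053 (adjusted p = 1.63e-18, edgeR). ASNS, asparagine synthetase, was at 135, 137 and 136 CPM in NR and 409, 422 and 405 CPM in parental libraries on drug, against 43.6, 42.1 and 36.9 CPM and 40.9 and 43.8 CPM in their controls. Both states thus had more ASNS on drug than off it, with the NR libraries between the controls and the parental libraries on drug. The difference was -1.56 ± 0.033 on drug (adjusted p = 1.94e-19, edgeR) and -0.052 untreated (adjusted p = 0.58, edgeR).

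INHBE, the subunit of the secreted activin E, stood at 1.91, 1.95 and 2.31 CPM in NR against 36.7, 36.9 and 34.1 CPM in parental libraries on drug (-4.08 ± 0.082, adjusted p = 1.12e-19, edgeR). Its controls were near the NR level, at 1.05, 1.26 and 0.821 CPM (NR) and 1.104 and 1.44 CPM (parental). DDIT4, an inhibitor of mTORC1, was at 7.38, 5.46 and 6.55 CPM in NR and 49.6, 49.7 and 45.5 CPM in parental libraries, a difference of -2.87 ± 0.076 (adjusted p = 8.97e-18, edgeR). TRIB3, a pseudokinase that restrains the response, differed by -1.85 on drug and by 0.25 without it. DDIT3 (CHOP), the factor of prolonged stress, differed by -1.96 on drug and -0.018 without it. NUPR1, a stress-induced chromatin protein named after its value was seen because its level was under the naming minimum, had the lowest value of the list (-4.74).

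Enzymes, carriers and tRNA synthetases of the list fell along with these regulators. SLC7A11, the cystine carrier, was at 66.5 ± 3.69 CPM in NR and 227 ± 6.98 CPM in parental libraries (-1.72), and SLC3A2, its partner subunit, fell by 1.02 on the log2 scale. AARS, the alanyl-tRNA synthetase, fell by 0.69 on that scale and CEBPG, a dimer partner of ATF4, by 0.75. These last 3 are named for the core in their promoters. The 2 genes that rose were ALDH18A1, of proline synthesis (0.49), and STC2, a secreted glycoprotein (0.15 on drug and 1.76 untreated), whose on-drug call was lost in the fits of all 12 OVCAR8 libraries and of all 24. ASS1, argininosuccinate synthase of arginine synthesis and no member of the list, was at 14.8, 16.4 and 16.1 CPM in NR and 174, 169 and 177 CPM in parental libraries on drug (-3.41 ± 0.047, adjusted p = 3.22e-22, edgeR).

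**Figure D2:**
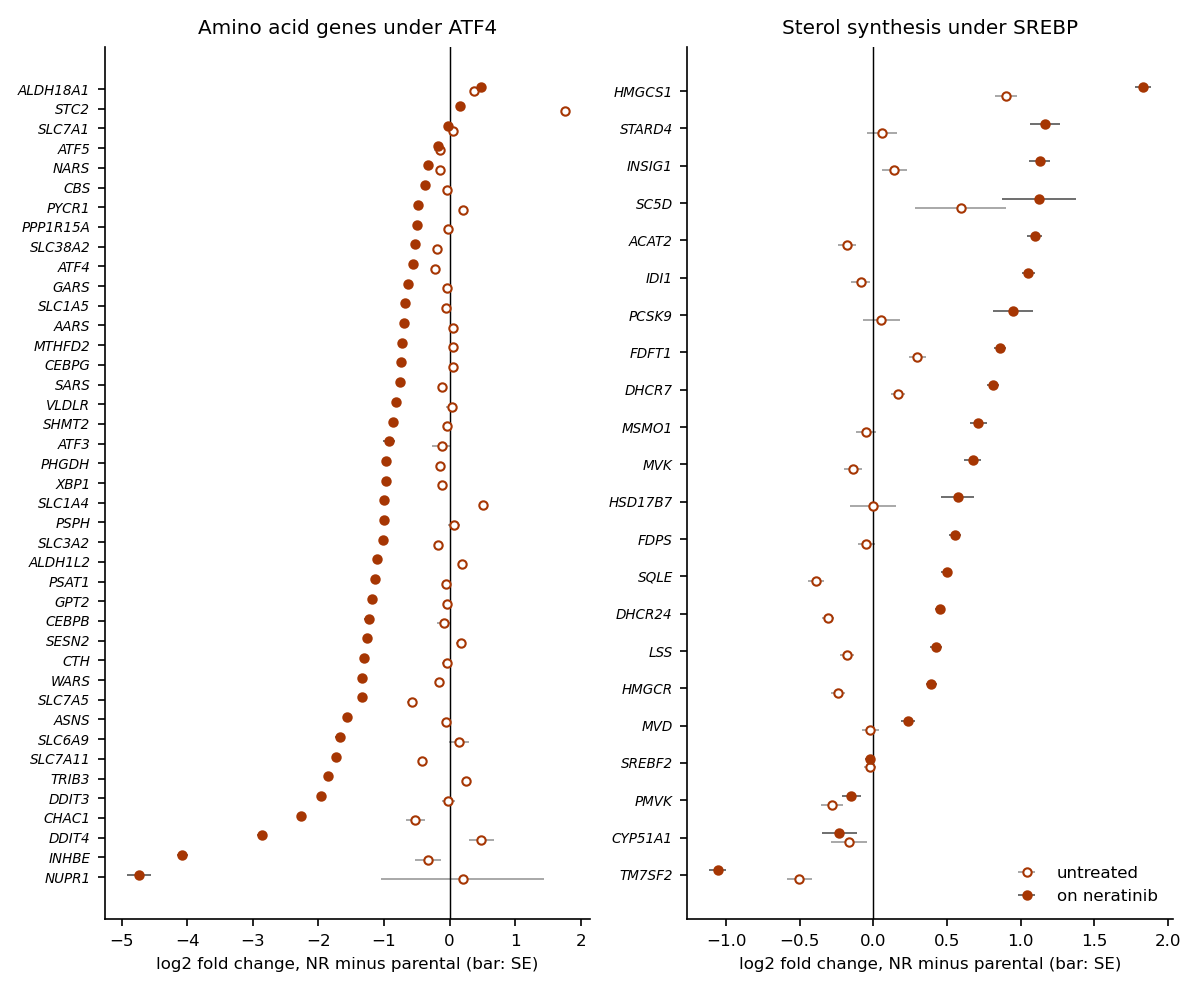
Log2 fold change of NR over parental (x axis; bars, standard error) for members of the ATF4 list (left, 41 genes) and of the sterol list (right, all tested but 1 not reported here), on neratinib (filled) and untreated (open). On neratinib most ATF4 genes lie below 0 and most sterol genes above it, while the untreated medians of the whole lists were -0.040 and -0.049.

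Sterol synthesis genes moved the other way. Of 23 tested, 19 rose, 1 fell and 7 rose at least 2-fold, with a median of 0.67, where untreated cells had 4 higher and 7 lower with a median of -0.049. The NR effect was larger on drug for 17 and smaller for 1.

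HMGCS1, the synthase before the rate-limiting step, was at 60.02, 59.1 and 55.4 CPM in NR and 17.4, 16.97 and 16.3 CPM in parental libraries (1.83 ± 0.052, adjusted p = 3.01e-17, edgeR). Every NR library lay above every parental one, as the naming rule for the largest rises required. The controls held 93.4, 108 and 111 CPM (NR) and 51.02 and 60.4 CPM (parental). The untreated difference was 0.90, and the test of the difference gave 0.91 ± 0.1 (adjusted p = 3.6e-07, edgeR). STARD4, a sterol carrier, rose by 1.16 and INSIG1, which retains SREBP in the endoplasmic reticulum, by 1.13. ACAT2, which makes acetoacetyl-CoA at the head of the route, rose by 1.10 on drug and was -0.18 untreated. TM7SF2, a sterol reductase, fell by 1.06 on the log2 scale. Fatty acid synthesis had 18 genes tested, 13 of them higher and 2 lower (median 0.25; 8 higher in the fit of all 12 OVCAR8 libraries), with SCD, the stearoyl-CoA desaturase, at 184 ± 9.81 CPM in NR against 95.5 ± 1.78 CPM in parental libraries.

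Genes of DNA replication and mitosis were higher in NR cells on drug, and without drug fewer differed. Of 36 replication genes 32 rose and 1 fell (median 0.52), against 2 and 10 in untreated cells (median -0.072). All 32 mitosis genes tested rose, with a median of 0.68 and a range of 0.27 to 1.09, and in untreated cells 4 rose and 4 fell. The difference of the effects was called higher for 33 replication genes (1 lower) and for 32 mitosis genes. With the GC offset the medians were 0.53 and 0.65.

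MCM10, a replication initiation factor, was at 58.2, 58.9 and 58.6 CPM in NR and 28.8, 27.4 and 27.8 CPM in parental libraries (1.11 ± 0.045, adjusted p = 1.21e-14, edgeR). The controls held 59.97, 62.9 and 62.5 CPM (NR) and 62.3 and 59.9 CPM (parental), so the parental libraries on drug were the low group of the 4. KIF11, the spindle motor Eg5, was at 171, 174 and 171 CPM in NR and 84.8, 79.3 and 86.4 CPM in parental libraries (1.09). MKI67, the proliferation antigen Ki-67, rose by 0.92, from 419 ± 13.04 to 767 ± 22.7 CPM. CDT1, a licensing factor, was the 1 replication gene called lower, and that call was lost with the GC offset and in the fits of all 12 OVCAR8 libraries and of all 24.

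Among 20 G1 regulators 12 rose and 7 fell, and in the fit of all 12 OVCAR8 libraries 7 were higher and 3 lower. CCND1, cyclin D1, was at 470, 464 and 478 CPM in NR and 245, 242 and 227 CPM in parental libraries (1.03 ± 0.034, adjusted p = 4.31e-16, edgeR). CDK2 rose by 0.65 and CCNE1 by 0.68. CDKN1C (p57), an inhibitor of cyclin-dependent kinases, fell by 1.36 on the log2 scale, from 9.32 ± 0.757 to 3.51 ± 0.171 CPM. The inhibitors CDKN1A and CDKN2A differed by -0.24 and -0.22, but neither passed the threshold with the GC offset or in those wider fits.

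Ribosome biogenesis genes rose and ribosomal protein genes fell. Of 34 biogenesis genes 31 rose and 2 fell (median 0.36, and 0.33 with the GC offset), while the fit of all 12 OVCAR8 libraries called 19 higher. NOLC1, a nucleolar chaperone, was at 389 ± 2.497 CPM in NR and 248.9 ± 5.46 CPM in parental libraries. Of 54 cytosolic ribosomal protein genes 36 fell and 4 rose, but the shift was small (median -0.13, and -0.14 with the GC offset). In untreated cells 19 of these rose, with a median of 0.094, and the NR effect was lower on drug for 40. Ribosomal protein genes have many near-identical pseudogenes, so their counts are uncertain. RPL3 differed by -0.41, and RPL37, one of those that rose, by 0.45. When all 12 OVCAR8 libraries were fitted together, 0 ribosomal protein genes were called by edgeR or DESeq2, with 2 lower at an unadjusted p below 0.05 in each, and the fit of all 24 libraries called 2 lower.

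The mTORC1 complex and its regulators showed no common shift, with 9 of 37 higher and 14 lower (median -0.012), and 4 and 8 in the fit of all 12 OVCAR8 libraries. The 3 that fell at least 2-fold were DDIT4 and SESN2, both stress-induced inhibitors of mTORC1, and GATSL3 (CASTOR1, an arginine sensor, named after its value was seen), at -1.29. SESN2 was at 31.5, 30.5 and 31.1 CPM in NR and 83, 77.8 and 69.3 CPM in parental libraries (-1.26). RRAGD, a Rag GTPase that brings mTORC1 to the lysosome, differed by -0.95 on drug and -0.71 without it. Among 28 mTORC1 effectors and PI3K-AKT genes 13 rose and 13 fell, and in that wider fit 7 were higher and 4 lower. SGK1, a kinase related to AKT, was at 26.6, 32.4 and 30.7 CPM in NR and 10.7, 10.4 and 8.97 CPM in parental libraries (1.63 ± 0.076, adjusted p = 1.18e-13, edgeR). EIF4EBP1, the translation repressor that mTORC1 inactivates, fell by 0.73 on the log2 scale, and IRS2, an adaptor of insulin receptors, by 0.60. EIF4E, the cap-binding factor that EIF4EBP1 holds, rose by 0.68.

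FOXO target genes were mostly lower. Of 25 tested 18 fell and 3 rose (median -0.49, and -0.42 with the GC offset), against 7 and 8 in untreated cells. ERBB3 is one of this list. TSC22D3 (GILZ) was at 7.33, 6.899 and 7.38 CPM in NR and 25.7, 25.1 and 23.3 CPM in parental libraries (-1.73 ± 0.069, adjusted p = 7.63e-15, edgeR). BBC3 (PUMA), a killer protein of the BCL2 family, was at 4.62, 5.15 and 5.33 CPM in NR and 15.3, 15.5 and 14.3 CPM in parental libraries (-1.53). Of 15 genes of the BCL2 family 7 fell and 2 rose (median -0.20), but with the GC offset 6 were lower and 4 higher and the median was 0.041. BCL2L11 (BIM), a killer protein that ERK and AKT hold down, fell by 0.56 on the log2 scale, and MCL1, which protects cells, rose by 0.47.

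RAS genes and their regulators were split, with 19 of 42 higher and 9 lower. NRAS differed by 0.39 and MAP2K1 (MEK1) by 0.45. With the GC offset 17 were higher and 14 lower, and in the fit of all 12 OVCAR8 libraries 7 were higher. Other receptor tyrosine kinases showed no common shift either: 9 of 28 rose and 8 fell, with 5 lower in that fit. FGFR1 was at 482, 465 and 485 CPM in NR and 333, 346 and 322 CPM in parental libraries (0.56), and it was higher untreated too (0.37). PDGFRB fell by 1.27 on the log2 scale, and IGF1R by 0.38, the latter not called in the fit of all 12 OVCAR8 libraries. Glycolysis and hypoxia genes rose for 22 of 30 and fell for 4 (median 0.37), and untreated cells had 21 higher and 2 lower. LDHA, lactate dehydrogenase A, was at 1015 ± 25.4 CPM in NR and 567 ± 17.5 CPM in parental libraries.

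**Figure D3:**
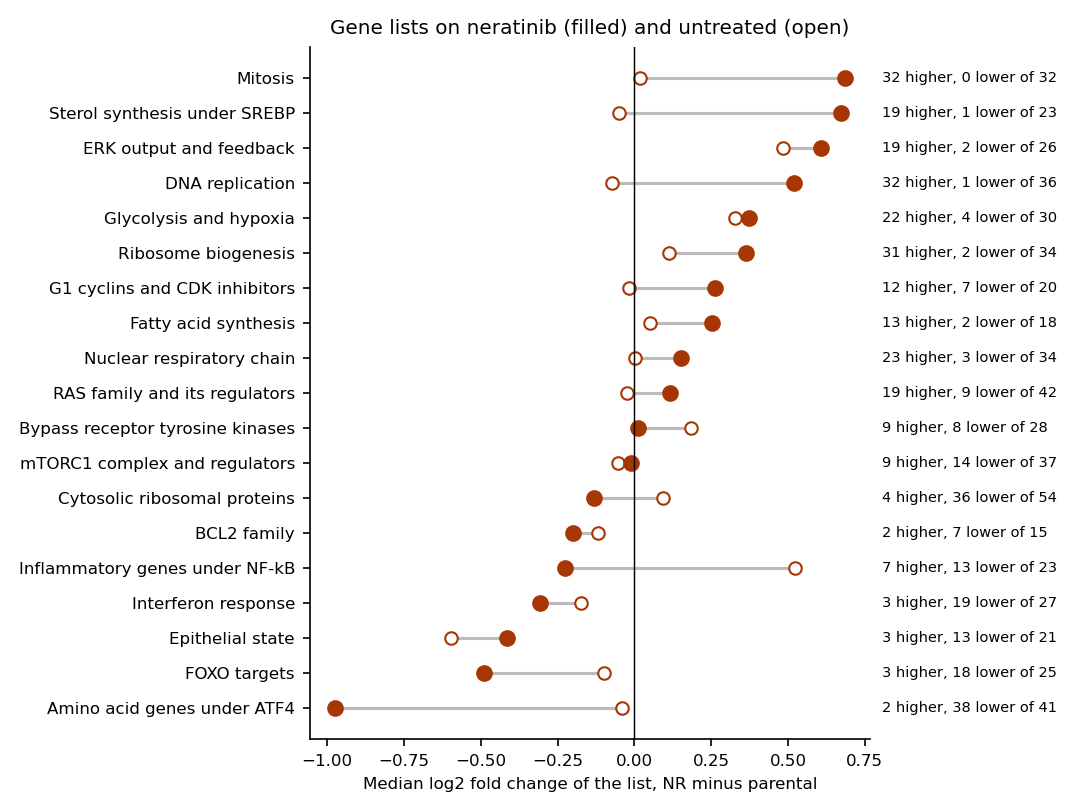
Median log2 fold change of NR over parental (x axis) for 19 gene lists (y axis) on neratinib (filled) and untreated (open), with the number of members called on neratinib at the right. The ATF4 list lies at -0.97 on drug and -0.040 untreated, while the epithelial list lies at -0.41 and -0.60.

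The largest rise among genes with at least 10 CPM on average was that of GREM1 (ENSG00000166923.6, chromosome 15, 33010175 to 33026870 of hg19), a secreted antagonist of BMP ligands, which was at 39.7, 40.9 and 43.8 CPM in NR and 1.47, 1.55 and 1.146 CPM in parental libraries on drug. Untreated libraries showed the same separation, at 60.3, 54.01 and 58.3 CPM (NR) and 3.601 and 2.96 CPM (parental). The difference was 4.95 ± 0.089 on drug (adjusted p = 1.88e-20, edgeR) and 4.13 untreated. FGF5 (ENSG00000138675.12, chromosome 4, 81187753 to 81257834), a growth factor, was at 102, 111 and 108 CPM in NR and 16.4, 16.5 and 15.7 CPM in parental libraries (2.78 ± 0.048, adjusted p = 1.58e-20, edgeR). PSG7, of the pregnancy-specific glycoproteins, was higher by 3.80, but that family has near-identical copies and its counts are uncertain.

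ADM, the vasodilator peptide adrenomedullin, was at 78.5, 68.8 and 78.9 CPM in NR and 14.4, 15.2 and 13.04 CPM in parental libraries on drug, with 142, 119.5 and 125 CPM and 66.3 and 47.95 CPM in the controls. The NR effect was 2.45 on drug and 1.181 without it, and larger on drug by 1.25 ± 0.13 (adjusted p = 2.13e-07, edgeR). TGM2, a matrix cross-linking transglutaminase, rose by 2.07, VCAN, a proteoglycan, by 1.93, and CTGF, a matrix protein under YAP, by 1.88. CLDN11, a tight junction protein, rose by 1.86, ADAMTS6, a matrix protease, by 1.84, and MYPN, a sarcomere protein, by 1.66. TMEM200A rose by 1.80. PLAUR, the urokinase receptor, was at 82.5 ± 2.04 CPM in NR against 30.4 ± 0.574 CPM in parental libraries.

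Among genes with at least 10 CPM on average the largest fall was that of IGFN1 (ENSG00000163395.12, chromosome 1, 201159953 to 201198080), an immunoglobulin-domain protein of muscle: 11.01, 14.99 and 15.7 CPM in NR against 262, 302 and 264 CPM in parental libraries (-4.26 ± 0.078, adjusted p = 2.17e-20, edgeR). BNC1, a zinc finger factor of epithelia, was at 4.32, 5.15 and 5.03 CPM in NR and 51.1, 54.2 and 50.98 CPM in parental libraries. It differed as much without drug (-3.38 on drug and -3.75 untreated). ITGB4, the integrin of hemidesmosomes, was at 24.4, 21.7 and 23.3 CPM in NR and 143, 132 and 148 CPM in parental libraries, and the effect was larger on drug by -1.35 ± 0.13 (adjusted p = 6.05e-08, edgeR). GDA, guanine deaminase, differed by -3.36, MISP, a spindle and actin protein, by -2.32, and PDGFB, a growth factor for stromal cells, by -2.28. LEPREL1, a collagen prolyl hydroxylase, differed by -2.15 and TTC9 by -1.98. TXNIP, an inhibitor of thioredoxin whose entry lies on a patch contig of hg19, differed by -2.17 on drug and by 0.76 without it.

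Epithelial genes were lower in NR cells with and without drug. Of 21 tested 13 fell and 3 rose on drug (median -0.41), and 12 fell and 1 rose untreated (median -0.60). The list's summed level was 3520 to 3780 CPM in NR and 5420 to 5510 CPM in parental libraries on drug. CLDN1, a tight junction protein, was at 12.4, 14.3 and 12.3 CPM in NR and 65.2, 57.5 and 58.4 CPM in parental libraries (-2.17 ± 0.064, adjusted p = 5.02e-17, edgeR). KRT7, a simple epithelial keratin, was at 708 ± 58.3 CPM in NR and 2000 ± 72.2 CPM in parental libraries. CDH1 was below 1 CPM in all 6 libraries. Mesenchymal genes were split, with 10 of 27 higher and 11 lower (5 and 6 in the fit of all 12 OVCAR8 libraries): CDH11, a cadherin of mesenchymal cells, rose by 1.55, whereas TGFBI fell by 1.49 and FN1 by 0.95 on the log2 scale. Summed mesenchymal levels were 8740 to 9050 CPM in NR and 9250 to 9490 CPM in parental libraries.

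NF-kB genes were mostly lower in NR cells on drug and mostly higher untreated. Of 23 tested 7 rose and 13 fell on drug (median -0.23, and -0.12 with the GC offset; 4 higher in the fit of all 12 OVCAR8 libraries), whereas 14 rose and 3 fell untreated (median 0.52). At least 2-fold on drug, however, 5 of the list rose and 1 fell. The NR effect was lower on drug for 17. IL1A, an inflammatory cytokine, was at 10.9, 11.3 and 9.92 CPM in NR and 2.74, 2.17 and 1.66 CPM in parental libraries on drug, and at 14.2, 16.1 and 15.3 CPM and 1.104 and 1.66 CPM in the controls. It stayed higher in NR, by 2.35 on drug and 3.45 without it. TNFAIP3 (A20), a feedback inhibitor, fell by 0.91 on the log2 scale and NFKBIA, which holds NF-kB in the cytoplasm, by 0.79. Of 27 interferon response genes 19 fell and 3 rose (median -0.31, and -0.32 with the GC offset), and 8 were lower in the fit of all 12 OVCAR8 libraries. IFI27, an interferon-induced mitochondrial protein, fell from 24.8 ± 0.0978 to 11.2 ± 0.815 CPM.

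**Figure D4:**
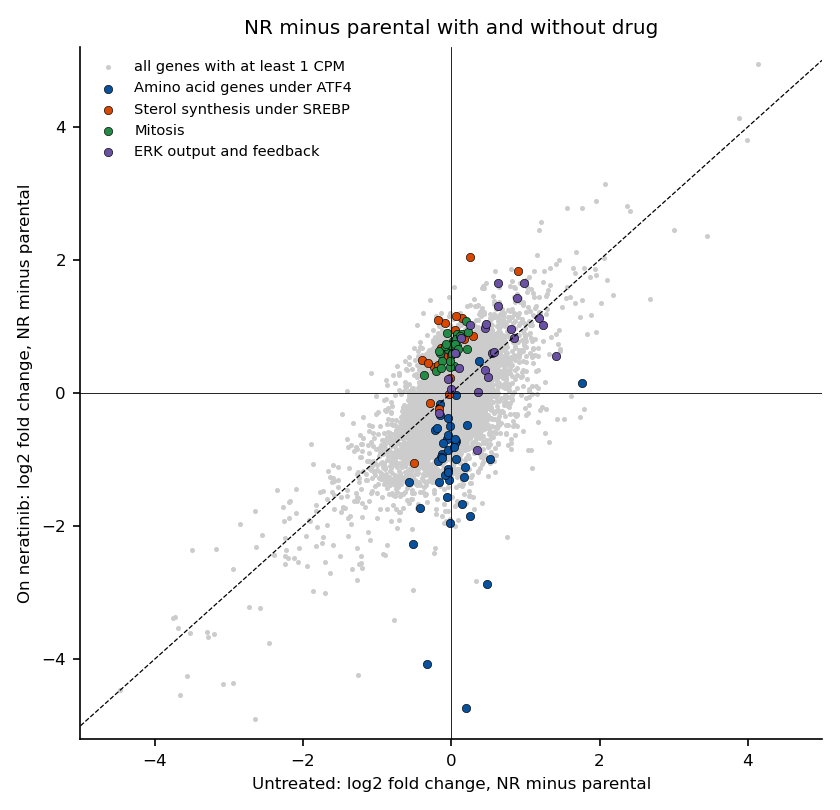
Log2 fold change of NR over parental on neratinib (y axis) against untreated (x axis) for genes with at least 1 CPM, with 4 lists in colour and the dashed line at equality. Most mitosis and sterol genes lie above the line near an untreated value of 0, most ATF4 genes lie below it, and most ERK output genes lie to the right of 0.

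Neighbouring genes on the short arm of chromosome 5 were higher together, a stretch chosen after the values were seen and given without a test. Between 31 and 45 Mb (hg19) 46 of 59 genes were higher and 7 lower on drug, with a median of 0.57. Over all genes 29.7% were higher and 29.5% lower on drug, and 11.4% each way untreated. Untreated NR cells had 43 higher and 4 lower with a median of 0.47, and in the next stretch, from 45 to 60 Mb, 9 of 30 were higher and 5 lower on drug (median 0.096). With the GC offset 45 were higher and 10 lower (median 0.39), and in 5637 on drug the median was 0.36. HMGCS1 and RPL37 lie in it. So do PRKAA1, the catalytic subunit of the energy sensor AMPK (1.08), GDNF, a neurotrophic factor (1.89), and RICTOR, the defining subunit of mTORC2 (0.64), whose call was lost in the fits of all 12 OVCAR8 libraries and of all 24. Windows of 15 neighbouring genes elsewhere shifted nearly as far. On chromosome 19, ZNF257 to ZNF726 had a median of 0.746 on drug and 0.0375 untreated. CCNYL2 to ZNF32 on chromosome 10 had -0.626 and -0.575, and PPDPF to ABHD16B on chromosome 20 had -0.657 and -0.431.

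**Figure D5:**
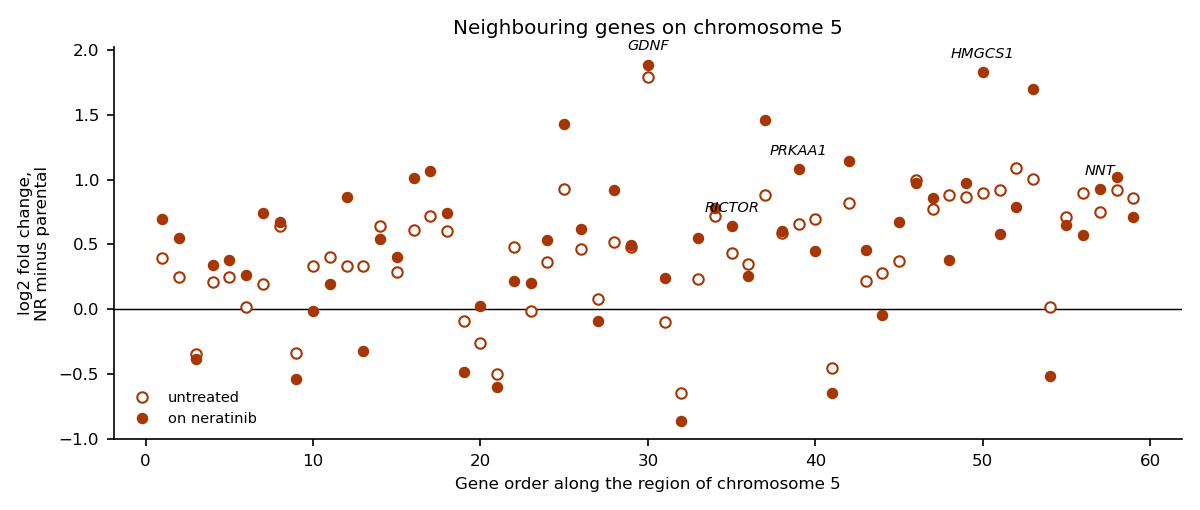
Log2 fold change of NR over parental (y axis) for the 59 genes of the stretch on chromosome 5 in their order along it (x axis), on neratinib (filled) and untreated (open). Most points lie above 0 in both conditions, with medians of 0.57 on drug and 0.47 untreated.

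Calls on drug and untreated overlapped in part. Among 17547 genes tested in both, 1388 rose in both, which is 26.6% of those higher on drug and 66.5% of those higher untreated. In the other direction 1337 fell in both, or 25.8% of those lower on drug and 64% of those lower untreated. Opposite calls were made for 314 genes that rose and 237 that fell on drug. Of the 407 genes at least 2-fold higher on drug, the effect was larger on drug for 150 and smaller for 3, and the difference was not called for 254. Of the 928 at least 2-fold lower genes it was larger for 407 and smaller for 11, and not called for 510. Over all genes the difference was called higher for 17% and lower for 15.7%. Both sets were chosen by the on-drug effect, which is itself a term of the difference. The choice therefore favours a larger effect on drug, and the counts are no separate evidence of it.

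Among genes with at least 10 CPM that were called both on drug and in the difference, those with a high NR effect on drug relative to untreated included TFRC, ACAT2, ADM and FANCM. TFRC, the transferrin receptor, was at 134, 131 and 124 CPM in NR and 50.1, 51.05 and 51.4 CPM in parental libraries on drug and at 140.1, 133 and 144 CPM and 183 and 156 CPM in the controls. Only the parental libraries on drug were low, and the difference of the effects was 1.66 ± 0.073 (adjusted p = 7.02e-13, edgeR). FANCM, a DNA helicase of crosslink repair, differed by 1.09 on drug and -0.16 without it. The lowest were INHBE, DDIT4, TXNIP, ASS1 and TRIB3, at -3.77, -3.36, -2.95, -2.65 and -2.12.

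In 5637 the same contrast on drug called 4926 higher (28.3%) and 4726 lower (27.2%) of 17403 genes. The difference between the lines was called for 4333 higher (22.1%) and 4197 lower (21.4%) of 19602, where the lines differ in dose as well, so line and dose cannot be told apart. Among 15596 genes tested in both lines 2110 rose in both, or 42.8% of those in OVCAR8 and 47.9% of those in 5637, and 1856 fell in both (39.7% and 43.3%). Opposite calls were made for 804 and 977. The ATF4 list had a median of -0.34 in 5637, with 25 of 40 lower and 4 higher, and 32 of 41 members were lower in OVCAR8 by the test of the difference. Sterol genes rose more in 5637 (22 of 23, median 1.63), and 19 of 23 were lower in OVCAR8 by that test. Mitosis genes rose in both lines (25 of 32 in 5637, median 0.61). The medians of the NF-kB genes had opposite signs, -0.23 in OVCAR8 and 1.10 in 5637. Of these genes 20 of 23 were higher in 5637, and 18 were lower in OVCAR8 by the test of the difference. In OVCAR8, though, 5 of them rose at least 2-fold and 1 fell so far. GREM1 was higher in NR cells of OVCAR8 and lower in those of 5637 (-3.85), where it stood at 0.25 ± 0.0918 CPM in NR and 3.67 ± 0.207 CPM in parental libraries (mean ± SD, n = 3 each).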

How the data were processed

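RNA was sequenced as stranded, poly(A)-selected, paired-end libraries from 24 dishes in 8 groups of 3, per the labels' protocols. The authors deposited raw counts per gene for 39786 genes on hg19. The submitters' processing notes name STAR (2.5.3a), featureCounts (1.15.2), FastQC and, as a statistics tool, DESeq2 (1.18.1), and whether counting used strand is not given in the sources used here, so overlapping and antisense genes are uncertain. From these counts the 6 libraries were fitted alone with edgeR 4.0.16 (R 4.3.3): filterByExpr, TMM factors, quasi-likelihood F-test, Benjamini-Hochberg threshold 0.05. CPM are over the library total. With 3 libraries a group an exact permutation test of a single gene cannot go below p = 0.1, so none was used.

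The difference with and without drug was fitted on 11 OVCAR8 libraries, as was the untreated contrast, and the difference between lines on 12 on-drug libraries. Members and lists were chosen with earlier results of these data known. Named genes were those with at least 10 CPM on average, past the threshold and without overlap between the groups, taking the 15 largest changes in each direction, plus up to 4 members in each direction per list (at least 5 CPM) and the 5 largest values in each direction of each test of a difference among genes called in both, and the ERBB receptors. A few genes that the rule would name are not reported here. Symbols of clones, loci and pseudogenes were not named. Genes on patch contigs and repeated symbols were kept as separate entries. Alternatives were DESeq2 1.42.0, limma 3.58.1 (voom), other size factors, other filters, a replicate block, leaving out each library, wider fits and, added after seeing the data, a GC offset per library. The RefSeq promoter table is of GRCh38.p14. On simulated counts with 200 changed genes, the on-drug fit called 77% of those changed 1.5-fold and 90% of those changed 2-fold, with 12 false calls among 17553 genes. Apart from the changed genes the simulated libraries shared the same means and had no GC trend, whereas the data gave 10401 calls and such a trend. The simulation therefore checks the fit and does not give the error rate of this contrast.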

Additional observations from a re-analysis of the deposited data

Results flagged for a closer look

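The NR effect in OVCAR8 differed with drug for many genes: by the test of the difference it was higher on drug for 3157 genes and lower for 2919. Among genes with at least 10 CPM that were called on drug and in the difference, large positive differences were those of TFRC (1.66), ACAT2 (1.26), ADM (1.25) and FANCM (1.23), all on the log2 scale. Those with the largest negative ones were INHBE (-3.77), DDIT4 (-3.36), TXNIP (-2.95), ASS1 (-2.65) and TRIB3 (-2.12). ASS1 stood at 12.4, 12.2 and 11.3 CPM in the NR controls and 18.9 and 22.1 CPM in the parental controls. TXNIP was at 3.303, 4.31 and 3.31 CPM in NR and 17.1, 15.2 and 18.5 CPM in parental libraries on drug, against 3.22, 3.69 and 3.62 CPM and 1.82 and 2.301 CPM in the controls.

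The NR effect on drug also differed between the lines, with 4333 genes higher in OVCAR8 and 4197 lower. Under the same rule the largest positive differences were those of PNMAL1 (10.5), GREM1 (8.80), LRRC3DN (8.49), HS6ST2 (7.23) and MGMT (6.41), and the largest negative ones those of SHISA9 (-13.5), IGFN1 (-10.3), ALPK2 (-7.93), KISS1 (-7.73) and CERS4 (-7.44). Most of these were set by 5637: PNMAL1, LRRC3DN and MGMT had no count in its NR libraries on drug, and SHISA9 and ALPK2 none in its parental libraries on drug. In OVCAR8 itself the on-drug calls of PNMAL1, LRRC3DN, HS6ST2, MGMT, ALPK2 and KISS1 were small and were lost in the fits of all 12 OVCAR8 libraries and of all 24, those of HS6ST2 and MGMT with the GC offset too. For the genes without counts in a group the fitted difference depends on the prior count and is no bound. PNMAL1 was at 37.9 ± 1.32 CPM in NR and 43.6 ± 1.94 CPM in parental OVCAR8 on drug (mean ± SD, n = 3 each). IGFN1 changed in both lines in opposite directions, with 120 ± 13.2 CPM in NR and 1.78 ± 0.282 CPM in parental 5637 on drug.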

How the results depend on the processing

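Wider fits that include parental control replicate 2 called fewer genes: all 12 OVCAR8 libraries gave 2638 higher and 2958 lower on drug, and all 24 gave 3027 higher, while 11 OVCAR8 libraries without it gave 4959 higher and 5327 lower. With 1 CPM required in 3 libraries 778 genes were at least 2-fold apart. Over all 12 OVCAR8 libraries the difference with and without drug was higher for 835 genes and lower for 760, with 346 at least 2-fold, parental control replicate 2 being included there. Leaving out each library in turn gave 4806 to 5059 higher, 4699 to 4956 lower and 1355 to 1461 at least 2-fold on drug. For the difference with and without drug the ranges were 2762 to 3174, 2221 to 2977 and 507 to 635, and for the difference between lines 3902 to 4693, 3759 to 4335 and 2884 to 3061. With library size only, 44.3% of calls were higher, against 50.2%. The GC offset turned the sign of CDT1 (0.0079), UQCRC1 (0.087), BAD (0.048), BOK (0.079), ABCA2 (0.10), MVP (0.026) and EGFL7 (0.10), and the cause was not tested.

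Same-numbered dishes did not deviate together (correlations 0.0221, -0.248 and -0.216). Differently numbered ones reached 0.244 (NR 2 with parental 3) and 0.236 (NR 3 with parental 2). The values show no pairing by number, but they cannot settle how the dishes were handled. The replicate block gave 5002 higher, 4978 lower and 1333 at least 2-fold on drug, 3132, 2953 and 584 for the difference with drug, and 4358, 4158 and 3011 between lines. Among values of single named genes 4780 kept direction and side of the threshold, 175 lost the call and 7 turned sign.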

Other observations

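Other gene lists showed smaller or divided shifts on drug. Over all genes tested 29.7% were called higher and 29.5% lower. Counts near those shares, such as those of the TGF-beta, BMP and ID genes, describe no trait of a list. Among 34 nuclear genes of the respiratory chain 23 rose and 3 fell (median 0.15), with 5 higher in the fit of all 12 OVCAR8 libraries and 9 in that of all 24, and among 19 chaperones of the endoplasmic reticulum 9 rose and 4 fell. Of 36 lysosome and autophagy genes 15 fell and 7 rose (2 in the fit of all 12), and of 21 drug metabolism and NRF2 genes 12 fell and 4 rose (median -0.32). WNT genes fell for 16 of 30 and rose for 8 (median -0.16, and -0.056 with the GC offset; 10 lower in the fit of all 12), Notch genes fell for 6 of 20 and rose for 2 (6 rose and 5 fell with the GC offset), and p53 targets rose for 8 of 20 and fell for 6 (4 and 3 in the fit of all 12). Hippo-YAP targets rose for 11 of 27 (5 in the fit of all 12) and fell for 6. Genes of TGF-beta, BMP and ID rose for 7 of 27 and fell for 8, and growth factors outside the ERBB ligands rose for 6 of 22 and fell for 9. Integrins and laminins rose for 8 of 25 (5 in the fit of all 12) and fell for 10, and matrix proteases rose for 9 of 20 and fell for 6. ABC efflux transporters rose for 6 of 15 and fell for 7 (7 rose and 4 fell with the GC offset, 3 and 3 in the fit of all 12). Genes of antigen presentation by class I rose for 3 of 10 (1 in the fit of all 12) and fell for 3.

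Summed marker levels are given by list. Of 6 Mullerian markers tested 5 fell, and the summed level was 282 to 310 CPM in NR and 509 to 539 CPM in parental libraries. Urothelial markers (5 tested, 2 rose and 2 fell) summed to 31 to 33 CPM in NR and 28.8 to 31.8 CPM in parental libraries. Fibroblast and mesothelial markers (7 tested, 3 rose and 4 fell) summed to 756 to 858 and 810 to 814 CPM, and endothelial markers (6 tested, 2 rose and 2 fell) to 54.7 to 60.2 and 67.2 to 72.6 CPM. Most of the former sum was COL1A1 (717 to 815 CPM in NR, 740 to 742 CPM in parental libraries), which the mesenchymal list holds too. EGFL7 made up most of the latter (44.9 to 50.6 and 58.2 to 64.7 CPM). Of 2 leukocyte markers tested 1 rose.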
